A study of Rattus norvegicus with 18 samples.

Results

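The G2/M and mitosis genes examined here are 59 genes whose products take a cell from the end of DNA replication through chromosome segregation to cytokinesis. The members are a list of gene names, drawn up with earlier results of these data known, and they fall into 7 steps: cyclins, kinases and entry phosphatases, the spindle checkpoint and anaphase, the centromere and kinetochore, kinesins, condensin and chromosome structure, spindle assembly, and chromosomal passengers and cytokinesis. Each gene was represented by a probe set that carries its symbol and no other, and where there were several the one brightest on average over the 18 arrays was taken. Of the 59 genes, 51 had such a probe set, among 14217 genes on the array. A filter of log2 4 or more on at least 3 arrays left 49 of them for testing, among 9015 genes, and 47 of the 49 were at or above log2 4 on all 18 arrays. Cenpe and Kif14 were below it on some arrays. Cdc25b, a phosphatase that activates CDK1, lay between 2.20 and 2.27 on every array, and Cenpa, the centromeric histone variant, between 3.09 and 3.54, so neither was tested. Cdc25c, Nek2, Ndc80, Kif4a, Ncapg, Tpx2, Anln and Cep55 had no probe set of their own symbol alone and are not analysed here.

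Cells came from NRK-52E, an established rat kidney line labelled as proximal tubular and as of the Osborne-Mendel strain. Cultures were grown to confluence and then received 1.65 µM aristolochic acid (AA) in 0.1% DMSO, or the same amount of DMSO with no AA. RNA was taken after 6, 24 or 72 h, which gives 6 groups of 3 arrays, all with the solvent. AA is a plant nitroarene that is reduced in cells to a species that binds purines in DNA, and the dose is labelled as the IC10 at 72 h. Per the labels the arrays within a group are biological replicates and 3 studies were conducted per time point, without a statement of separate platings or days. The p-values therefore cover only the variation among these samples, which may be partly technical.

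Entry into mitosis is driven by CDK1 bound to a B-type cyclin, with Polo-like and Aurora kinases in support. The kinetochore ties chromosomes to the spindle, the spindle checkpoint holds CDC20 and the anaphase-promoting complex until all are attached, and kinesins, condensins and the chromosomal passenger complex then separate and divide them. Most of these genes are transcribed in G2 through the MuvB complex with B-MYB and FOXM1, and the same complex with p130 and E2F4, called DREAM, silences them in quiescent cells and after p53 has raised p21.

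Values are the authors' deposited log2 expression values, and a difference is the mean of AA minus the mean of DMSO on that scale. A value after ± is the standard error of a difference. A gene is said to rise or fall when its limma p-value, adjusted over the 9015 genes with the Benjamini-Hochberg method, was under 0.05. Replicates correlated with r between 0.996 and 0.999 across genes, and array medians lay between 4.03 and 4.20. The median SD between replicates was 0.14 over all genes tested and 0.23 over the tested members. On AA 6 h replicate 3, 35 of the 49 members had their highest value of the 18 arrays. DMSO 72 h replicate 3 had lower member values than its fellow replicates. Of the proximal tubule markers, Lrp2, Cubn, Slc34a1, Slc5a2, Hnf4a, Slc22a6 and Anpep were all under 2.7 on every array, near the floor of the scale, and only Aqp1 (2.05 to 8.48) and Ggt1 (3.11 to 7.78) passed the filter. Aqp1, an apical water channel, rose by 5.22 in DMSO from 24 to 72 h and was lower in AA at 72 h by a difference of -2.33, and Ggt1 was higher in AA at 6 h by 1.27. Epcam, Cdh1, Krt18, Krt19 and Cldn1 also lay near the floor, while the epithelial genes Krt8 (12.57 to 14.26) and Tjp1 (13.32 to 13.85) and the mesenchymal genes Vim (14.38 to 15.35) and Col3a1 (13.88 to 14.69) were high. The endothelial genes Pecam1 and Kdr and the leukocyte genes Ptprc and Lyz2 were under 2.9 on every array. Of the same lists Tek and Cd68 passed the filter, and at 72 h Tek was at -2.02 (lower in AA) and Cd68 at 1.90 (higher in AA). Of 3 epithelial markers tested 2 rose at 72 h, and of 6 mesenchymal markers tested, among 8 measured, 1 rose and 1 fell. Of all genes tested 27.4% rose and 19.8% fell at that time. In DMSO from 24 to 72 h Col3a1 was at 0.48, and the other mesenchymal markers tested were lower at 72 h, with Col1a1 lowest at -2.29. The part of these marker changes in the member results was not tested.

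In the solvent controls the tested members fell together between 6 and 24 h and recovered in part by 72 h. All 49 were lower in DMSO at 24 h than at 6 h, against 30.5% of all genes tested, with a median difference of -2.03. All 49 were higher in DMSO at 72 h than at 24 h, against 17.2% of all genes tested, with a median of 1.10. The fall was smaller in AA, where 48 of 49 were lower at 24 h than at 6 h (27.5% of all genes tested) with a median of -1.36. Smc4 was the exception, at -0.03. Between 24 and 72 h in AA, 19 members fell further (22.8% of all genes tested), 3 rose (30% of all genes tested) and 27 did not pass, with a median of -0.28. The 3 that rose were Cenpt at 1.15, Kif18b at 1.05 and Kif23 at 0.42. A second probe set of Kif23 fell over the same interval, by 0.49 (adjusted p = 0.013), and the mean of both was at -0.033. In RNA from whole cultures, fewer cells in G2 and mitosis and less RNA per such cell cannot be told apart.

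**Figure D1:**
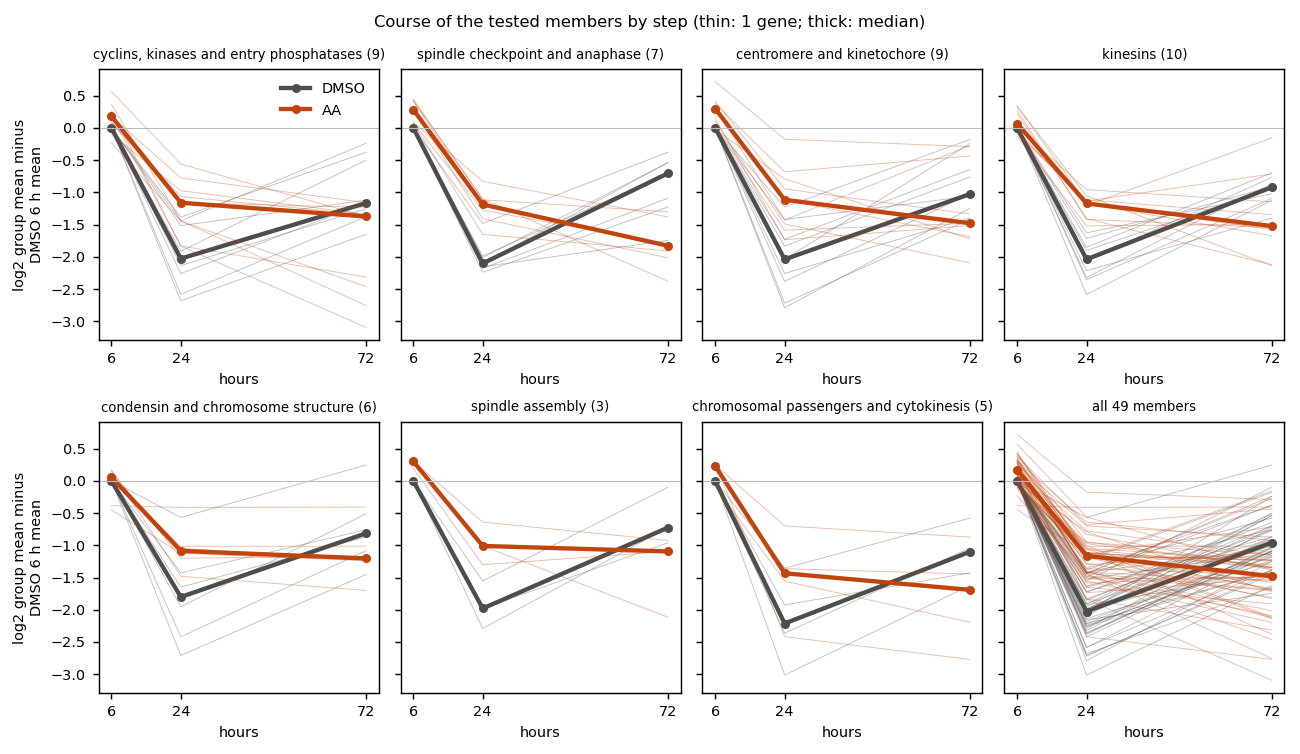
Each panel plots, against hours, the log2 group mean minus the gene's DMSO 6 h mean, for the tested members of a step and for all 49 in the last panel; thin lines are genes and thick lines their median, grey for DMSO and orange for AA. Over the 49 genes the DMSO median falls and then rises by 1.10 (the median of the differences), while the AA lines fall less by 24 h and mostly stay low or fall further by 72 h.

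A summary per array shows the same courses without averaging over replicates. The median over the 49 members of each array's deviation from the gene means was 0.76, 1.06 and 0.95 on the DMSO 6 h arrays and 1.04, 0.91 and 1.33 on the AA 6 h arrays. At 24 h it was -1.24, -0.94 and -1.04 in DMSO against -0.16, -0.22 and -0.39 in AA. At 72 h it was 0.15, 0.21 and -0.35 in DMSO against -0.49, -0.65 and -0.59 in AA. The 2 treatments overlapped at 6 h. They were apart in opposite directions at 24 and 72 h, and DMSO 72 h replicate 3 lay closest to the AA arrays. The highest group mean was AA 6 h for 39 members, DMSO 6 h for 9 and DMSO 72 h for 1, Smc4. The lowest was DMSO 24 h for 42 and AA 72 h for 7.

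**Figure D2:**
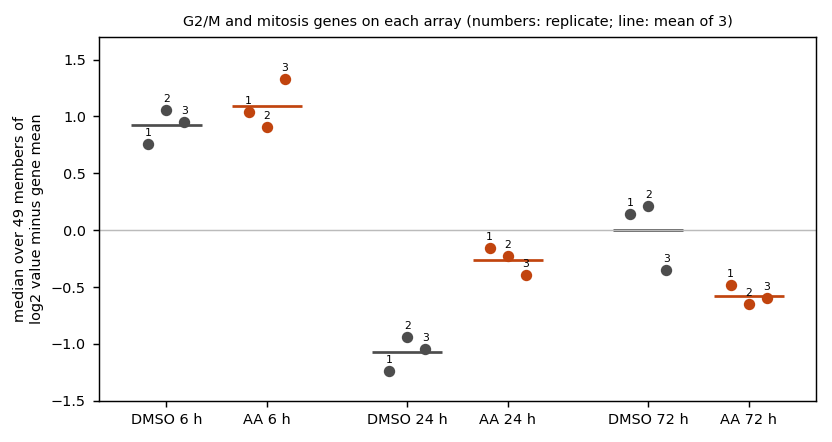
The vertical axis is the median over 49 members of the log2 value minus the gene's mean over 18 arrays, with a point for each array, its replicate number above it and a line at the mean of the 3. DMSO 24 h is lowest, between -1.24 and -0.94, and AA 72 h lies between -0.65 and -0.49, below the 3 DMSO 72 h arrays.

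Against the control of the same hour, 4 of 49 members rose at 6 h and 0 fell, where 12.1% of all genes tested rose and 12.4% fell. At an unadjusted limma p under 0.05 the counts were 7 and 0, without a share of all genes at that cutoff, which was not taken. Spc24 (0.72), Ccnb2 (0.57), Nuf2 (0.41) and Cenpk (0.38) were the 4. The member median was 0.17, against 0.01 over all genes tested, and 39 of 49 values were above 0. For 6 members all AA arrays lay above all DMSO arrays (18.9% of all genes tested), and for 0 they lay below (17.6%). Without AA 6 h replicate 3 the count of rising members was 1 and the median 0.05.

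At 24 h, 41 of 49 members rose and 0 fell, where 1.81% of all genes tested rose and 0.277% fell. At an unadjusted limma p under 0.05 the counts were 47 and 0, again without a share of all genes at that cutoff. The median was 0.85, against -0.01 over all genes tested, and the differences ran from 0.16 in Smc4 to 1.38 in Kif18b. For 47 members the 3 AA arrays lay above the 3 DMSO arrays, against 9.04% of all genes tested, with Smc2 and Smc4 the exceptions. Aurka, Cenpe, Cenpn, Kif14, Smc2, Smc4, Incenp and Cdca8 did not pass the test. The count was 25 without AA 24 h replicate 1, AA 24 h replicate 2 or DMSO 24 h replicate 1, and 27 without DMSO 24 h replicate 3 or without the filter. The median stayed between 0.73 and 0.91 when any of the 6 arrays was left out.

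At 72 h, 32 of 49 members fell and 4 rose, where 19.8% of all genes tested fell and 27.4% rose. The median was -0.60, against 0.05 over all genes tested, from -1.84 in Cdc20 to 1.14 in Cenpt. The AA arrays lay below all DMSO arrays for 30 members (25.2% of all genes tested) and above them for 4 (34.4%). Cenpt, Kif18b (0.97), Cenpk (0.62) and Kif23 (0.31) rose. Plk4, Aurkb, Mad2l1, Cenpe, Cenpn, Spc24, Kif14, Kif15, Ncaph, Smc2, Cdca2, Hmmr and Ect2 did not pass. When an array was left out the count of falling members was 31, 29 and 28 without AA 72 h replicates 1, 2 and 3, and 27 and 26 without DMSO 72 h replicates 1 and 2 (medians from -0.62 to -0.50). Without DMSO 72 h replicate 3, 38 members fell, the median was -0.75, and Plk4, Mad2l1, Cenpe, Kif15, Hmmr and Ect2 passed.

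**Figure D3:**
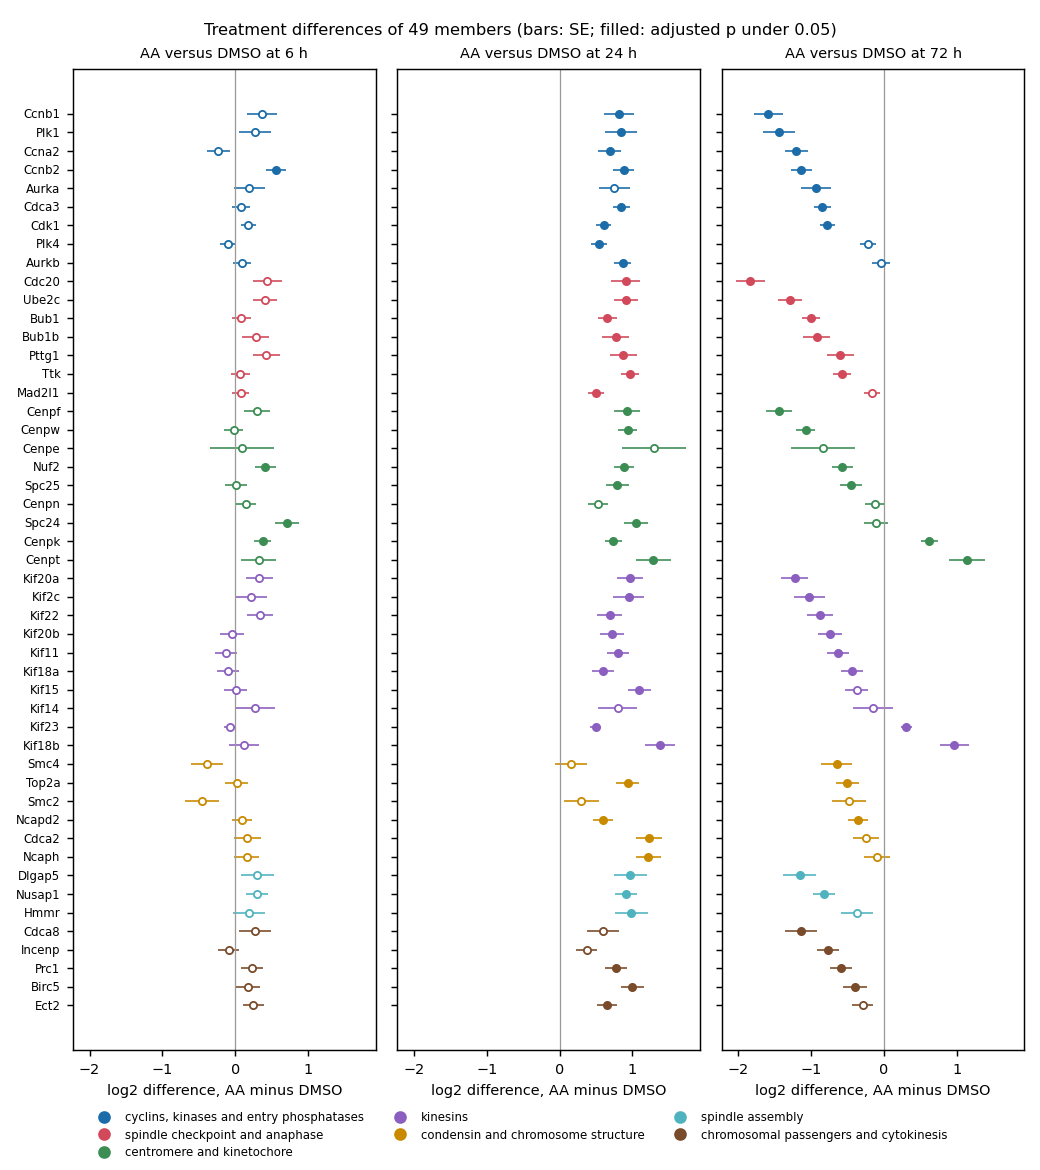
Points are log2 differences of AA minus DMSO at 6, 24 and 72 h for the 49 tested members, grouped and coloured by step, with standard errors as bars and filled points for an adjusted p under 0.05. All 49 values lie above 0 at 24 h, and at 72 h all but those of Cenpk, Cenpt, Kif18b and Kif23 lie below it.

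Set side by side, 28 members rose at 24 h and fell at 72 h, 9 rose at 24 h and did not pass at 72 h, 4 rose at both times, 4 passed at 72 h alone, where they fell, and 4 (Cenpe, Cenpn, Kif14 and Smc2) passed at neither. Fewer of all genes were called at 24 h than at 72 h, so the adjusted threshold was stricter there. A pattern of calls is therefore not a pattern of sizes. The change of the treatment difference from 24 to 72 h was itself tested. The difference fell in 42 of 49 members, against 13.7% of all genes tested, with a median of -1.46. Cenpk, Cenpt, Kif14, Kif18b, Kif23, Smc2 and Smc4 did not pass that test. From 6 to 24 h the difference rose in 13 of 49 members, against 1.45% of all genes tested, with a median of 0.61, and the count was 0 without DMSO 6 h replicate 2, with values between 2 and 14 when another array was left out. Across members, the 24 h and 72 h differences, which share no arrays, had a Spearman rho of 0.0055 (n = 49). As a description over genes that vary together, a larger difference at 24 h did not go with a larger or smaller one at 72 h.

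**Figure D4:**
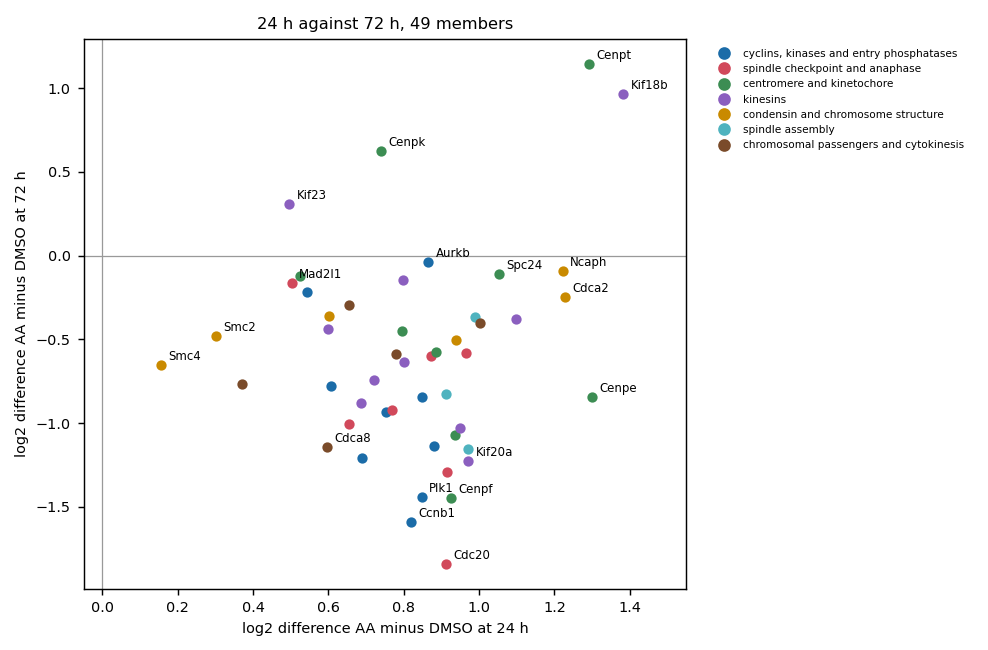
Each point is a tested member, with its log2 difference of AA minus DMSO at 24 h on the horizontal axis and at 72 h on the vertical axis, coloured by step. All points lie right of 0, and 4 of them, Cenpt, Kif18b, Cenpk and Kif23, lie above 0 at 72 h.

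The promoters of 4 members that fell at 72 h are shown because the members moved together and 2 short motifs are known for promoters of this class, one read by MuvB and one by NF-Y; the 4 were chosen with their values known. Sequences are from RefSeq, build GRCr8, and run 5′ to 3′ from 250 bases before to 50 bases after 1 annotated start of the gene, which is the outermost start for Ccnb1, Plk1 and Cdc20 and lies 45 bases inside it for Cenpf. They are at chr2:33655176-33655475 (minus strand) for Ccnb1, chr1:186147408-186147707 (plus) for Plk1, chr5:137255750-137256049 (minus) for Cdc20 and chr13:103760837-103761136 (minus) for Cenpf. Capitals mark CCAAT, the NF-Y box, and the cell cycle genes homology region (CHR), searched as TTTGAA or TTCGAA, each on both strands.
Ccnb1: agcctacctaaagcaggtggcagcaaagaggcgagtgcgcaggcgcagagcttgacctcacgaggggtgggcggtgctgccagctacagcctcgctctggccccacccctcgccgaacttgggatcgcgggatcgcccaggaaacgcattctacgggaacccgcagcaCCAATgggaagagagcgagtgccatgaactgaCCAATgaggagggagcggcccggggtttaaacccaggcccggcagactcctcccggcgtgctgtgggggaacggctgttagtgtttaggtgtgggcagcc
Plk1: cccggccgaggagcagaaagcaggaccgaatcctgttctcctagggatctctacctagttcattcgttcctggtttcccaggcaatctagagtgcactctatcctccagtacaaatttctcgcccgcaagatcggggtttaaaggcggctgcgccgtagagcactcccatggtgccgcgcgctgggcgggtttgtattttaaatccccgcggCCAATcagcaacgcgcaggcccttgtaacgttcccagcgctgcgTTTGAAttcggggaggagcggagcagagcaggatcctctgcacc
Cdc20: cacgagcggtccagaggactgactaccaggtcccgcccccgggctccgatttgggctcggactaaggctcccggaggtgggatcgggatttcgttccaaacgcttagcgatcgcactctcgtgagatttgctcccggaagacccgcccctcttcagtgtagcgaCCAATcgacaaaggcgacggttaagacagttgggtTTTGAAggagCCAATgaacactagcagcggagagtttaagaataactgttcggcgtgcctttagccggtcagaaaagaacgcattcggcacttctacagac
Cenpf: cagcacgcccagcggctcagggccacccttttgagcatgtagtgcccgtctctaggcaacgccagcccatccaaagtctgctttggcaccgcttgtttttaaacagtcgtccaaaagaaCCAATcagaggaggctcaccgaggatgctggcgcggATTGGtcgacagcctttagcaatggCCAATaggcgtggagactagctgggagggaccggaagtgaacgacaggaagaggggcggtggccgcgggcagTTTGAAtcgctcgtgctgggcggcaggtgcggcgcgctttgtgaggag
In this window Ccnb1 had 2 CCAAT matches and 0 CHR matches, Plk1 1 of each, Cdc20 2 and 1, and Cenpf 3 and 1.

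RefSeq promoters were matched for 51 of the 59 genes, tested or not. Of these 51, 36 held a CCAAT match (70.6%), 36 a CHR match (70.6%) and 27 both (52.9%). Over all 33469 promoters of the same length the shares were 37.5%, 19.7% and 7.95%, and over the 7646 promoters of genes tested on the arrays 38.8%, 13.2% and 5.7%. Motif matches were counted separately, so a base could belong to both. Of the 51 windows, 16 were set at the outermost start of the gene's span in the same build. Another 5 lay 1 to 50 bases inside it and 30 over 50 bases inside it. Farthest inside were those of Kif11 (41951 bases), Nuf2 (35359), Smc2 (9977), Birc5 (4777) and Kif18b (2697), and that of Kif23 lay 1327 bases inside. All of these windows are part of the shares above. Among the 16 windows at the outermost start, 11 held a CCAAT match, 9 a CHR match and 7 both. Windows of members that rose and fell at 72 h are not set against each other for that reason. A match is a run of letters and not a measured site, and no binding was measured here.

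**Figure D5:**
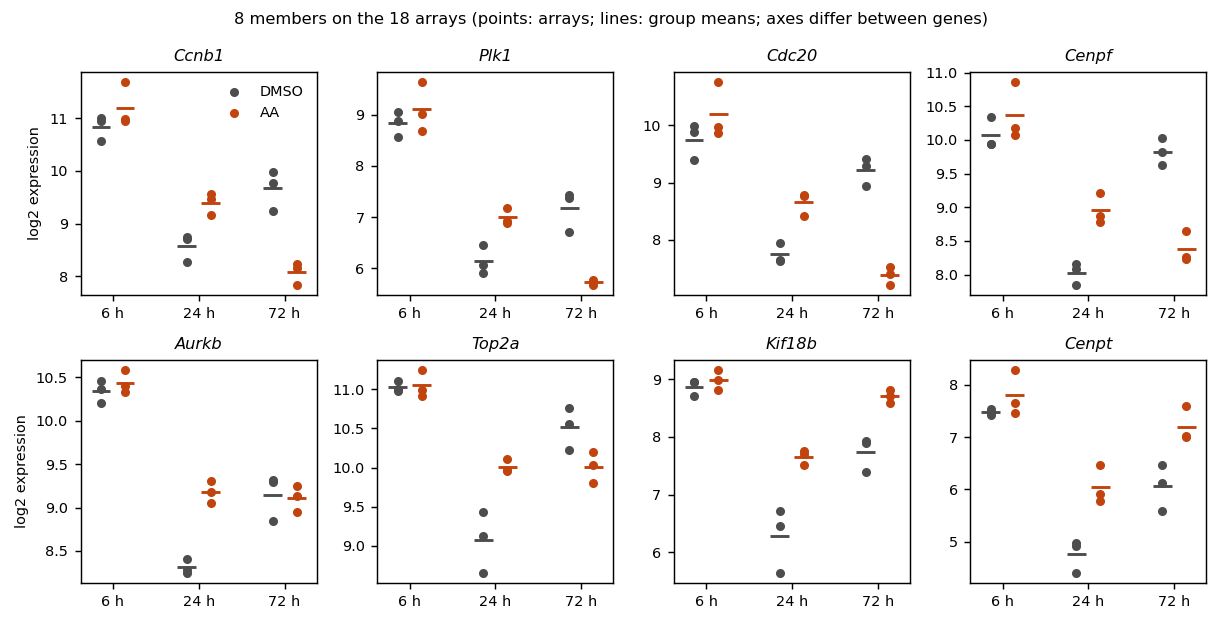
Log2 expression of 8 members on the 18 arrays, with points for arrays, lines for group means, grey for DMSO and orange for AA; the vertical axes differ between genes. Ccnb1, Plk1, Cdc20 and Cenpf are above DMSO at 24 h and below it at 72 h, Aurkb overlaps DMSO at 72 h, Top2a lies just below it, and Kif18b and Cenpt stay above it.

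Of 9 tested cyclins, kinases and related genes, 8 rose at 24 h (median 0.82) and 7 fell at 72 h (median -0.94). The counts of this and each later step stand beside the shares of all genes tested. These were 1.81% rising and 0.277% falling at 24 h, and 27.4% and 19.8% at 72 h. Ccnb1, cyclin B1, the partner of CDK1, measured 10.56, 10.94 and 11.00 on the DMSO 6 h arrays and 10.94, 10.98 and 11.69 on the AA 6 h arrays. Its values were 8.28, 8.74 and 8.70 in DMSO against 9.56, 9.46 and 9.16 in AA at 24 h, and 9.78, 9.98 and 9.24 against 7.84, 8.24 and 8.15 at 72 h. The groups overlapped at 6 h, AA was the higher at 24 h, and at 72 h every AA array was below every DMSO array by about a log2 unit or more. Ccnb1 rose by 0.82 ± 0.20 at 24 h (adjusted p = 0.0372) and fell by 1.59 ± 0.20 at 72 h (adjusted p = 2.86e-06). The 24 h call was lost without AA replicate 1 (0.74, adjusted p = 0.198), AA replicate 2 (0.79, 0.139), DMSO replicate 1 (0.67, 0.256) or DMSO replicate 3 (0.88, 0.0795). It was also lost without the filter (adjusted p = 0.129) and without the intensity trend (0.0784). A second probe set of Ccnb1 was at 1.13 at 24 h (adjusted p = 0.0032) and at -1.65 at 72 h.

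Ccnb2, cyclin B2, was already higher in AA at 6 h, with 11.89, 11.80 and 12.43 against 11.30, 11.54 and 11.59 in DMSO. At 24 h it measured 10.98, 10.95 and 10.82 in AA against 9.77, 10.12 and 10.21, and at 72 h 10.14, 10.17 and 10.00 against 11.31, 11.36 and 11.04. The treatments were apart at all 3 times, in the other direction at 72 h. The differences were 0.57 ± 0.14 (adjusted p = 0.00793), 0.88 ± 0.14 (adjusted p = 0.00123) and -1.14 ± 0.14 (adjusted p = 1.84e-06). The 6 h call was lost without AA replicate 3 (0.37, adjusted p = 0.0606) and when only the 6 h arrays were fitted (adjusted p = 0.0599).

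Cdk1, the kinase that drives entry into mitosis, measured 12.38, 12.49 and 12.35 in DMSO and 12.50, 12.52 and 12.73 in AA at 6 h. It then measured 10.92, 11.10 and 11.05 against 11.75, 11.60 and 11.54 at 24 h, and 12.13, 12.22 and 11.72 against 11.33, 11.25 and 11.16 at 72 h. Although its arrays did not overlap at 6 h, the difference of 0.18 did not pass (adjusted p = 0.207). It rose by 0.61 ± 0.10 at 24 h (adjusted p = 0.00194) and fell by 0.78 ± 0.10 at 72 h (adjusted p = 4.72e-06). Ccna2, cyclin A2, followed with 0.69 and -1.21. Its 24 h call was lost in 6 of 16 other settings, 4 of them without AA replicate 1 or 2 or DMSO replicate 1 or 3 (0.64 to 0.68, adjusted p from 0.0913 to 0.122).

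Plk1, the Polo-like kinase of mitotic entry and spindle formation, had 6 h values of 8.56, 8.87 and 9.04 in DMSO and 8.67, 9.01 and 9.64 in AA. At 24 h DMSO was at 5.90, 6.46 and 6.07 and AA at 6.90, 7.17 and 6.92, and at 72 h DMSO was at 7.37, 7.44 and 6.72 and AA at 5.68, 5.74 and 5.78. Its AA 72 h arrays were the lowest of its 18 and agreed within 0.05 (SD, n = 3). Plk1 rose by 0.85 ± 0.22 at 24 h (adjusted p = 0.0473), close to the threshold, and fell by 1.44 ± 0.22 at 72 h (adjusted p = 2.11e-05). Its 24 h call was lost without each array except DMSO replicate 2, with differences from 0.73 without DMSO replicate 1 to 0.90 without AA replicate 1 and adjusted p between 0.0951 and 0.270, and in 3 of the other settings.

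Aurkb, the kinase of the chromosomal passenger complex, did not show the fall at 72 h. It measured 10.20, 10.46 and 10.36 in DMSO and 10.59, 10.40 and 10.34 in AA at 6 h, and 8.28, 8.41 and 8.25 against 9.31, 9.06 and 9.18 at 24 h. At 72 h DMSO was at 9.32, 9.29 and 8.84 and AA at 9.24, 8.95 and 9.13, which overlap. The difference was 0.87 ± 0.12 at 24 h (adjusted p = 0.000609) and -0.04 ± 0.12 at 72 h (adjusted p = 0.811). Aurka, the centrosomal Aurora kinase, was at 0.75 at 24 h (adjusted p = 0.0805, or 0.0304 with the 24 h arrays alone). Its AA arrays lay above its DMSO arrays at that time, as for Aurkb. At 72 h Aurka fell, with a difference of -0.94 (adjusted p = 0.00118). Plk4, the kinase of centriole duplication, rose by 0.54 at 24 h (0.51 and adjusted p = 0.0541 without DMSO replicate 3) and was at -0.22 at 72 h (adjusted p = 0.112), past the test there without AA replicate 1 (-0.32, 0.0307) or DMSO replicate 3 (-0.37, 0.00766). Cdca3, a mitotic entry factor that targets WEE1 for degradation, was at 0.85 and -0.85.

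All 7 spindle checkpoint and anaphase genes rose at 24 h (median 0.87), and 6 fell at 72 h (median -0.92). Cdc20, the activator of the anaphase-promoting complex that the checkpoint restrains, had the lowest difference of all members at 72 h. It measured 9.39, 9.88 and 9.98 in DMSO and 9.87, 9.96 and 10.76 in AA at 6 h. At 24 h it was at 7.65, 7.95 and 7.62 against 8.77, 8.77 and 8.42, and at 72 h at 9.29, 9.41 and 8.94 against 7.52, 7.39 and 7.21. Its AA 72 h arrays were the lowest of its 18, while DMSO had come back close to the 6 h level. Cdc20 rose by 0.91 ± 0.20 at 24 h (adjusted p = 0.0167) and fell by 1.84 ± 0.20 at 72 h (adjusted p = 3.42e-07). The 24 h call was lost without AA replicate 1 (0.85, adjusted p = 0.0882), AA replicate 2 (0.85, 0.0830), DMSO replicate 1 (0.87, 0.0831) or DMSO replicate 3 (0.85, 0.0880). It was also lost without the filter (adjusted p = 0.0609). A second probe set that passed the filter was at 0.56 at 24 h (adjusted p = 0.242) and at -1.95 at 72 h. The mean of the 5 probe sets of Cdc20, 3 of them below the filter's level on average, was at 0.36 at 24 h (adjusted p = 0.136).

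Bub1, a checkpoint kinase at kinetochores, measured 9.81, 10.19 and 10.01 in DMSO and 10.18, 10.01 and 10.07 in AA at 6 h. It measured 8.54, 8.52 and 8.49 against 9.27, 9.03 and 9.20 at 24 h and 9.73, 9.81 and 9.32 against 8.83, 8.40 and 8.62 at 72 h. The treatments were apart at 24 and 72 h. The differences were 0.65 ± 0.13 (adjusted p = 0.00749; 0.60 and 0.0549 without AA replicate 1) and -1.0 ± 0.13 (adjusted p = 3.41e-06).

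Ttk, the checkpoint kinase also called MPS1, had the largest difference of its step at 24 h. Its 6 h values were 9.76, 9.99 and 9.96 in DMSO and 10.04, 9.68 and 10.21 in AA. At 24 h they were 7.71, 7.65 and 7.64 against 8.69, 8.60 and 8.60, and at 72 h 8.79, 8.80 and 8.44 against 8.13, 8.18 and 7.99. The 24 h arrays of each treatment lay close together and the treatments far apart. Ttk rose by 0.97 ± 0.12 at 24 h (adjusted p = 0.00043) and fell by 0.58 ± 0.12 at 72 h (adjusted p = 0.000751). Ube2c, the ubiquitin-conjugating enzyme of the anaphase-promoting complex, was at 0.91 and -1.29, Bub1b, a component of the mitotic checkpoint complex, at 0.77 and -0.92, and Pttg1, securin, at 0.87 and -0.60, all past the test at both times. The 24 h calls of Bub1b and Pttg1 were lost in 7 and 5 of 16 other settings, each among them without AA replicate 1 or 2 or DMSO replicate 1 or 3. Without these arrays Bub1b was at 0.62 to 0.83 (adjusted p from 0.0627 to 0.221) and Pttg1 at 0.80 to 0.86 (adjusted p from 0.0587 to 0.0824). The 72 h call of Pttg1 was lost without DMSO replicate 2 (-0.45, adjusted p = 0.0793). Mad2l1, which binds CDC20 in the checkpoint, rose by 0.50 at 24 h and was at -0.16 at 72 h (adjusted p = 0.248). Its 24 h call was lost with the replicate number as a block (adjusted p = 0.0504) and without AA replicate 1 or 2 or DMSO replicate 1 or 3 (0.46 to 0.52, adjusted p from 0.059 to 0.114).

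The 9 centromere and kinetochore genes went in both directions at 72 h, as the kinesins did. At 24 h 7 rose (median 0.92), and at 72 h 4 fell, 2 rose and 3 did not pass (median -0.45). Of all genes tested 19.8% fell and 27.4% rose at 72 h. Cenpf, a large kinetochore and nuclear envelope protein, measured 9.93, 10.34 and 9.94 in DMSO and 10.17, 10.07 and 10.86 in AA at 6 h. It was at 7.85, 8.15 and 8.08 against 8.87, 9.21 and 8.78 at 24 h, and at 9.83, 10.02 and 9.63 against 8.65, 8.23 and 8.26 at 72 h. Its DMSO arrays at 72 h were nearly back to the 6 h level, and the AA arrays were not. Cenpf rose by 0.92 ± 0.18 at 24 h (adjusted p = 0.00685) and fell by 1.44 ± 0.18 at 72 h (adjusted p = 2.36e-06). The 24 h call was lost without AA replicate 2 (0.80, adjusted p = 0.0588) or DMSO replicate 1 (0.84, 0.0537).

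Cenpt, Cenpk, Cenpw and Cenpn belong to the constitutive centromere network, on which the outer kinetochore is built. Cenpt and Cenpk stayed higher in AA at 72 h, while Cenpw fell and Cenpn did not pass. Cenpt measured 7.42, 7.53 and 7.49 in DMSO and 7.65, 7.47 and 8.29 in AA at 6 h. At 24 h it was at 4.96, 4.40 and 4.91 against 5.78, 5.91 and 6.46, and at 72 h at 6.12, 6.47 and 5.59 against 7.0, 7.59 and 7.02. The AA arrays were above all DMSO arrays at both later times. Its differences were 1.29 ± 0.25 at 24 h (adjusted p = 0.00558) and 1.14 ± 0.25 at 72 h (adjusted p = 0.000793). Cenpk measured 10.38, 10.43 and 10.37 in DMSO and 10.90, 10.52 and 10.90 in AA at 6 h. It was at 8.92, 9.08 and 8.92 against 9.72, 9.76 and 9.66 at 24 h, and at 9.46, 9.49 and 9.06 against 10.09, 9.95 and 9.84 at 72 h. AA was the higher at all 3 times. It rose by 0.38 ± 0.12 at 6 h (adjusted p = 0.023), 0.74 ± 0.12 at 24 h (adjusted p = 0.00104) and 0.62 ± 0.12 at 72 h (adjusted p = 0.000178). Only its 6 h call was lost when an array was left out, without AA replicate 1 (0.31, 0.0729), AA replicate 3 (0.31, 0.119), DMSO replicate 1 (0.37, 0.0526) or DMSO replicate 3 (0.36, 0.0635). A fit of the 6 h arrays alone lost it too (adjusted p = 0.0705).

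The microtubule-binding NDC80 complex was represented by 3 of its subunit genes. Spc24 measured 9.50, 9.32 and 9.89 in AA against 8.77, 8.95 and 8.83 in DMSO at 6 h, and 8.79, 8.71 and 8.53 against 7.71, 7.91 and 7.25 at 24 h. At 72 h it was at 8.44, 8.57 and 8.67 in AA and 8.77, 8.86 and 8.38 in DMSO, which overlap. It rose by 0.72 ± 0.16 at 6 h (adjusted p = 0.00487) and 1.05 ± 0.16 at 24 h, and was at -0.11 at 72 h (adjusted p = 0.605). Its 6 h rise was the only member call at that time kept in every setting tried. Nuf2 was at 0.41 (adjusted p = 0.0409), 0.89 and -0.57, with its 6 h call lost in 8 of 16 other settings, among them the fits without AA replicate 3 (0.29, adjusted p = 0.223), DMSO replicate 1 (0.31, 0.158), DMSO replicate 2 (0.48, 0.0526) or DMSO replicate 3 (0.45, 0.0625). Spc25 was at 0.01, 0.80 and -0.45, with its 24 h call lost without DMSO replicate 3 (0.69, adjusted p = 0.0528). The fall at 72 h did not pass without DMSO replicate 1 (-0.32, adjusted p = 0.125), DMSO replicate 2 (-0.34, 0.115) or AA replicate 3 (-0.43, 0.0588), nor with the 72 h arrays alone (0.059). Cenpw, of the histone-fold group of the centromere, rose by 0.94 at 24 h and fell by 1.07 at 72 h.

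Cenpe, a kinesin-like motor that moves chromosomes to the spindle equator, had the largest 24 h difference of the step and did not pass. It measured 6.51, 7.09 and 6.88 in DMSO and 6.68, 6.25 and 7.85 in AA at 6 h, 4.34, 3.90 and 3.88 against 5.15, 5.72 and 5.14 at 24 h, and 6.24, 6.29 and 4.20 against 5.14, 4.89 and 4.17 at 72 h. Some of these values are close to the floor, and DMSO 72 h replicate 3 stood about 2 log2 units below its fellows. The differences were 1.30 ± 0.44 at 24 h (adjusted p = 0.188) and -0.84 ± 0.44 at 72 h (adjusted p = 0.125), and the latter was -1.53 without DMSO 72 h replicate 3 (adjusted p = 0.00201) and passed with the replicate number as a block (0.0399). Cenpn, which recognises the centromeric nucleosome, was at 0.52 (adjusted p = 0.0517, under 0.05 in 4 other settings) and -0.12 (adjusted p = 0.491).

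Of 10 kinesins, 9 rose at 24 h (median 0.80), and at 72 h 6 fell, 2 rose and 2 did not pass (median -0.54). Kif18b, which depolymerises astral microtubules, had the largest difference of any member at 24 h. It measured 8.70, 8.94 and 8.95 in DMSO and 8.81, 8.99 and 9.16 in AA at 6 h. At 24 h it was at 6.46, 6.72 and 5.65 against 7.71, 7.76 and 7.51, and at 72 h at 7.89, 7.94 and 7.40 against 8.82, 8.71 and 8.59. By 72 h the AA arrays were back near the 6 h level, and DMSO was about a log2 unit lower. Kif18b rose by 1.38 ± 0.20 at 24 h (adjusted p = 0.000637) and by 0.97 ± 0.20 at 72 h (adjusted p = 0.000569).

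Kif23, the centralspindlin motor of the midzone, was at 12.00, 12.07 and 11.94 in DMSO and 11.95, 11.83 and 12.02 in AA at 6 h. It was at 10.30, 10.43 and 10.39 against 10.96, 10.78 and 10.87 at 24 h, and at 11.05, 11.04 and 10.85 against 11.41, 11.19 and 11.26 at 72 h. The spread between replicates was small and the AA arrays were above DMSO at both later times. It rose by 0.50 ± 0.08 at 24 h (adjusted p = 0.00125) and 0.31 ± 0.08 at 72 h (adjusted p = 0.0034). A second probe set was at -0.22 at 72 h (adjusted p = 0.264), and the mean of both was at 0.04 (adjusted p = 0.761), so the 72 h rise rests on the brighter probe set.

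Kif20a, the motor that carries the passenger complex to the central spindle, had the lowest difference of the kinesins at 72 h. It measured 10.93, 11.22 and 11.19 in DMSO and 11.19, 11.12 and 12.03 in AA at 6 h. It was at 8.91, 9.27 and 9.10 against 10.12, 10.13 and 9.94 at 24 h, and at 10.28, 10.46 and 9.88 against 9.15, 8.96 and 8.83 at 72 h. The AA arrays at 72 h were near the DMSO arrays at 24 h. Kif20a rose by 0.97 ± 0.18 at 24 h (adjusted p = 0.00517) and fell by 1.23 ± 0.18 at 72 h (adjusted p = 1.91e-05).

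Kif11, the kinesin-5 motor that pushes spindle poles apart, measured 9.01, 9.28 and 9.21 in DMSO and 8.98, 9.05 and 9.09 in AA at 6 h. It was at 7.0, 6.98 and 6.56 against 7.82, 7.59 and 7.53 at 24 h, and at 8.37, 8.53 and 8.01 against 7.91, 7.46 and 7.64 at 72 h. On this probe set DMSO rose between 24 and 72 h while the AA ranges overlapped. A second, dimmer probe set fell in AA over that interval by 1.10 (adjusted p = 0.00704), and the mean of both fell by 0.54 (adjusted p = 0.0278). The differences were 0.80 ± 0.15 at 24 h (adjusted p = 0.00458) and -0.63 ± 0.15 at 72 h (adjusted p = 0.00177). With the mean of its probe sets the 24 h value was 0.70 (adjusted p = 0.0871). Kif2c, a microtubule depolymerase at centromeres, was at 0.95 and -1.03, Kif22, a chromosome arm motor, at 0.69 and -0.88, Kif20b at 0.72 and -0.74 and Kif18a, which damps chromosome oscillation, at 0.60 and -0.44, each past the test at both times. The 24 h calls of Kif22, Kif18a, Kif2c and Kif20b were lost in 9, 8, 6 and 5 of 16 other settings. Kif22 and Kif18a lost theirs without any array except DMSO replicate 2, with Kif22 at 0.52 to 0.76 (adjusted p from 0.0751 to 0.343) and Kif18a at 0.53 to 0.64 (adjusted p from 0.0824 to 0.186), and Kif18a also with the replicate block (adjusted p = 0.1). Kif2c lost its call without AA replicate 1 or 2 or DMSO replicate 1 or 3 (0.81 to 0.97, adjusted p from 0.0669 to 0.141), and Kif20b without any AA replicate or DMSO replicate 1 (0.60 to 0.76, adjusted p from 0.0528 to 0.144). At 72 h Kif18a did not pass without DMSO replicate 1 (-0.35, adjusted p = 0.112), DMSO replicate 2 (-0.39, 0.0814) or AA replicate 2 (-0.28, 0.146), nor with the 72 h arrays alone (0.0742). Kif15, which backs up KIF11, rose by 1.10 at 24 h and was at -0.38 at 72 h (adjusted p = 0.0574; -0.57 and 0.00474 without DMSO 72 h replicate 3). Kif14, near the floor, was at 0.80 (adjusted p = 0.191; 1.09 and 0.0498 without AA replicate 3) and -0.15 (adjusted p = 0.685).

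Of 6 genes of condensin and chromosome structure, 4 rose at 24 h (median 0.77), 3 fell at 72 h and 0 rose (median -0.42). Cdca2, which brings phosphatase PP1 to chromatin at mitotic exit, measured 9.51, 9.48 and 9.62 in DMSO and 9.77, 9.60 and 9.73 in AA at 6 h. It was at 6.57, 7.32 and 6.59 against 8.18, 8.01 and 7.98 at 24 h, and at 8.33, 8.19 and 7.73 against 8.18, 7.62 and 7.71 at 72 h. The 24 h groups were far apart and the 72 h groups overlapped. Cdca2 rose by 1.23 ± 0.18 at 24 h (adjusted p = 0.000798) and was at -0.25 ± 0.18 at 72 h (adjusted p = 0.284).

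Top2a, topoisomerase II alpha, which untangles sister chromatids, measured 11.00, 11.11 and 10.97 in DMSO and 10.92, 10.99 and 11.25 in AA at 6 h. It was at 8.66, 9.13 and 9.44 against 9.95, 10.11 and 9.97 at 24 h, and at 10.56, 10.76 and 10.23 against 10.20, 10.03 and 9.81 at 72 h. At 72 h the highest AA array lay just under the lowest DMSO array. Top2a rose by 0.94 ± 0.16 at 24 h (adjusted p = 0.00174) and fell by 0.50 ± 0.16 at 72 h (adjusted p = 0.0131). The fall did not pass without AA replicate 3 (-0.40, adjusted p = 0.0730) or DMSO replicate 2 (-0.38, 0.0823).

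Smc4, a core condensin ATPase, had the smallest difference of all members at 24 h. It measured 11.50, 11.64 and 11.27 in DMSO and 11.65, 10.99 and 10.61 in AA at 6 h, 10.79, 10.81 and 11.10 against 11.40, 10.81 and 10.96 at 24 h, and 11.97, 11.61 and 11.56 against 11.37, 10.62 and 11.19 at 72 h. Only at 72 h were the groups apart. The difference was 0.16 ± 0.22 at 24 h (adjusted p = 0.872) and -0.65 ± 0.22 at 72 h (adjusted p = 0.0186), the latter not past the test without AA replicate 2 (-0.43, adjusted p = 0.133), without DMSO replicate 1 (-0.52, 0.0915) or without the filter (0.0514). Its partner Smc2 was at 0.30 and -0.48 and did not pass at either time, although its arrays did not overlap at 72 h. At 72 h it passed with the replicate block (adjusted p = 0.0111) and with the 72 h arrays alone (0.00607), and at 6 h (-0.45, adjusted p = 0.165) it passed with the block (0.0316) and without DMSO replicate 3 (-0.82, 0.00752). The condensin I subunit genes Ncaph and Ncapd2 rose by 1.22 and 0.60 at 24 h and were at -0.09 (adjusted p = 0.688) and -0.36 (adjusted p = 0.0352) at 72 h, the latter call lost in 7 of 16 other settings, among them without AA replicate 1 or 3 or DMSO replicate 1 or 2 (-0.34 to -0.27, adjusted p from 0.0786 to 0.16). Ncapd2 lost its 24 h call without AA replicate 1 or 2 or DMSO replicate 1 (0.53 to 0.56, adjusted p from 0.104 to 0.125) and without the filter (0.0578).

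The 3 spindle assembly genes all rose at 24 h (median 0.97) and 2 fell at 72 h. Dlgap5, a RanGTP-regulated kinetochore fibre protein, measured 9.05, 9.62 and 9.32 in DMSO and 9.30, 9.54 and 10.06 in AA at 6 h. It was at 6.80, 7.68 and 7.57 against 8.33, 8.56 and 8.07 at 24 h, and at 8.50, 8.55 and 8.06 against 7.19, 6.99 and 7.47 at 72 h. AA lay above DMSO at 24 h and below it at 72 h on every array. It rose by 0.97 ± 0.23 at 24 h (adjusted p = 0.0238) and fell by 1.15 ± 0.23 at 72 h (adjusted p = 0.000335). The 24 h call was lost without AA replicate 1 (0.96, adjusted p = 0.0918), AA replicate 2 (0.85, 0.144) or DMSO replicate 1 (0.70, 0.209) and in 3 other settings.

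Hmmr, a microtubule-associated protein of spindle poles, measured 7.98, 8.58 and 8.57 in DMSO and 8.31, 8.36 and 9.04 in AA at 6 h. It was at 6.26, 6.02 and 5.99 against 7.05, 7.14 and 7.04 at 24 h, and at 7.98, 7.92 and 7.05 against 7.44, 7.22 and 7.19 at 72 h. At 72 h the groups overlapped through DMSO replicate 3. Hmmr rose by 0.99 ± 0.22 at 24 h (adjusted p = 0.0185) and was at -0.37 ± 0.22 at 72 h (adjusted p = 0.185). Without DMSO 72 h replicate 3 it was at -0.67 (adjusted p = 0.0127), and a second probe set was at -0.89 (adjusted p = 0.00179). The 24 h call was lost without any of 5 arrays, all but DMSO replicate 1, with adjusted p between 0.0547 and 0.0971 and differences between 0.94 and 1.01. Nusap1, which bundles spindle microtubules near chromosomes, was at 0.91 and -0.82 and passed at both times.

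Among 5 genes of the chromosomal passengers and cytokinesis, 3 rose at 24 h (median 0.65) and 4 fell at 72 h (median -0.59). Birc5, survivin, which holds the passenger complex at centromeres, measured 9.05, 9.42 and 9.17 in DMSO and 9.12, 9.28 and 9.77 in AA at 6 h. It was at 6.72, 7.08 and 6.75 against 7.87, 8.02 and 7.67 at 24 h, and at 8.37, 8.27 and 7.88 against 7.78, 7.78 and 7.76 at 72 h. The AA 72 h arrays agreed within 0.01 (SD, n = 3), just below the lowest DMSO array. Birc5 rose by 1.0 ± 0.16 at 24 h (adjusted p = 0.00143) and fell by 0.40 ± 0.16 at 72 h (adjusted p = 0.049). That fall lay at the threshold and was lost in 9 of 16 other settings, among them every fit without 1 of the 6 arrays except DMSO replicate 3, with differences from -0.41 to -0.30 and adjusted p from 0.0846 to 0.193.

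Cdca8, borealin of the same complex, measured 8.43, 9.04 and 8.83 in DMSO and 8.77, 8.83 and 9.54 in AA at 6 h. It was at 5.33, 5.99 and 5.94 against 6.18, 6.24 and 6.62 at 24 h, and at 7.20, 7.39 and 6.83 against 5.92, 5.92 and 6.14 at 72 h. Its groups were apart at 24 h, yet the difference of 0.60 ± 0.22 did not pass (adjusted p = 0.25), and it fell by 1.15 ± 0.22 at 72 h (adjusted p = 0.000269). Incenp, the scaffold of the complex, was at 0.37 (adjusted p = 0.303) and -0.77 (adjusted p = 0.000279). The 4 passenger complex genes thus had 24 h differences from 0.37 in Incenp to 1.0 in Birc5, and 72 h differences from -1.15 in Cdca8 to -0.04 in Aurkb. Prc1, which bundles midzone microtubules, was at 0.78 and -0.59 (0.62 and adjusted p = 0.0568 at 24 h without DMSO replicate 1), and Ect2, the exchange factor that activates RhoA at the cleavage furrow, at 0.65 and -0.29 (adjusted p = 0.095 at 72 h; -0.46 and 0.0119 without DMSO 72 h replicate 3). Ect2 lost its 24 h call without AA replicate 1 or 2 or DMSO replicate 1 or 3 (0.60 to 0.67, adjusted p from 0.0534 to 0.0881) and without the filter (0.0578).

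For 14 members, 16 further probe sets passed the filter and were tested one by one in a fit over 12505 probe sets. Of these, 0 passed at 6 h, 7 rose and 0 fell at 24 h, and 11 fell and 0 rose at 72 h. The share of all 12505 probe sets called in that fit was not taken, so these counts stand without a background. The 16 further probe sets had the sign of the brighter one in 12, 16 and 15 cases at 6, 24 and 72 h. The exception at 72 h was that of Kif23. At 24 h the further probe sets tested for Cdc20, Ttk, Kif2c, Kif11, Kif23, Smc4 and Incenp, and the second brightest of Mad2l1, did not pass.

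The tested members span 2.4 to 94.3 kb in GRCr8, with a median of 25.3 kb. At 72 h the span and the difference had a Spearman rho of 0.25 over 49 members and -0.26 over the 9006 tested genes with a span. Members under 20 kb (n = 19) had a median of -0.88 at 72 h, those of 20 to 40 kb (n = 15) -0.58, and those of 40 kb or more (n = 15) -0.48. At 24 h the medians of these classes were 0.87, 0.91 and 0.80. At 72 h the longer genes had the lower differences over all genes, and among the members the order of the medians was the other way. At 6 h rho was -0.31 over members and -0.15 over all genes, and at 24 h -0.15 and -0.21, the same sign in both. Members vary together, so a rho over them is a description.

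Other genes of the pathway were taken from lists written by function. Their counts stand against the shares of all genes tested, 12.1% rising and 12.4% falling at 6 h, 1.81% and 0.277% at 24 h, and 27.4% and 19.8% at 72 h. Of 77 other mitosis genes tested, 7 rose and 5 fell at 6 h, 28 rose and 0 fell at 24 h (median 0.24), and 11 rose and 27 fell at 72 h (median -0.19). These are 9.09% and 6.49% at 6 h, both below the share of all genes, 36.4% rising at 24 h, and 14.3% and 35.1% at 72 h. Gtse1, which restrains p53 in G2 and binds microtubule ends, rose at all 3 times, by 0.74, 1.13 and 2.37 (adjusted p = 2.45e-11 at 72 h). Cenpm, of the same centromere network as Cenpt, Cenpk, Cenpw and Cenpn, was at 0.43 at 6 h (adjusted p = 0.067). It rose by 1.08 and 2.0 at 24 and 72 h. Kifc1, a minus-end kinesin, rose by 1.07 at 24 h and fell by 0.98 at 72 h. Tacc3, a spindle microtubule protein, rose by 1.10 at 24 h and was at -0.45 at 72 h (adjusted p = 0.0246), a call lost in 6 other settings. The lowest 72 h differences of the list were those of Mad1l1, a checkpoint protein that recruits MAD2 (-2.59), Stag1, a cohesin subunit (-2.36), and Pimreg (-2.13). At 6 h Kntc1 (0.74) and Ska2 (0.52), kinetochore genes, rose, and Knl1, a kinetochore scaffold gene, was at -0.96 (adjusted p = 0.0232), with its call lost in 5 other settings and that of Ska2 in 2.

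Of 27 tested genes that gate G2 or belong to DREAM, 2 rose and 7 fell at 6 h, 3 rose and 0 fell at 24 h, and 12 rose and 8 fell at 72 h, with a 72 h median of -0.01. That is 7.41% and 25.9% at 6 h, 11.1% rising at 24 h, and 44.4% and 29.6% at 72 h, beside the shares of all genes given above. Cdkn1a, p21, was at 11.30, 11.35 and 11.23 in DMSO and 11.83, 12.09 and 12.00 in AA at 6 h, 11.01, 11.02 and 10.76 against 12.00, 12.04 and 12.10 at 24 h, and 10.88, 11.02 and 10.65 against 14.57, 14.63 and 14.48 at 72 h. It was higher in AA at each time, by 0.68, 1.12 and 3.71 ± 0.09. A link between Cdkn1a and the members was not tested. Foxm1, the G2 transcription factor gene, measured 7.76, 8.12 and 8.01 in DMSO and 7.76, 8.17 and 8.19 in AA at 6 h, 5.70, 6.13 and 5.45 against 6.69, 6.53 and 6.61 at 24 h, and 6.79, 6.92 and 6.60 against 6.35, 5.88 and 6.37 at 72 h. It rose by 0.85 at 24 h (adjusted p = 0.012, lost in 4 other settings) and fell by 0.57 at 72 h (adjusted p = 0.0132, lost in 2). Mybl2, B-MYB, was at 0.84 at 24 h (adjusted p = 0.224) and rose by 1.24 at 72 h (adjusted p = 0.00211) from 3.80, 4.55 and 2.97 in DMSO, values near the floor, to 5.23, 5.18 and 4.63.

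Wee1, the kinase that holds CDK1 inactive, was at 0.13 at 24 h (adjusted p = 0.716) and at -0.35 at 72 h (adjusted p = 0.00834, lost in 1 other setting). Pkmyt1, a second inhibitory kinase of CDK1, rose by 0.94 at 24 h (lost in 2 settings) and 0.61 at 72 h (lost in 1). Chek1, the replication checkpoint kinase, was at 0.42 at 24 h (adjusted p = 0.203) and 0.40 at 72 h (adjusted p = 0.0306, lost in 6 settings). Plk2 (2.77), Gadd45g (1.95) and Gadd45a (1.37), damage-responsive genes that can delay mitotic entry, rose at 72 h. Sfn, 14-3-3 sigma, which retains CDK1 in the cytoplasm, rose by 1.37 at 6 h and 1.29 at 72 h and was at 0.89 at 24 h (adjusted p = 0.053). The MuvB subunit gene Lin52 (-0.81) and the p107 gene Rbl1 (-0.73) fell at 6 h.

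Of 50 tested G1/S and replication genes, 2 rose and 3 fell at 6 h, 25 rose and 0 fell at 24 h (median 0.51), and 18 rose and 7 fell at 72 h (median 0.08). These are 4% and 6% at 6 h, below the 12.1% and 12.4% of all genes, 50% rising at 24 h, and 36% and 14% at 72 h. At 24 h they thus rose in 25 of 50 cases beside 41 of 49 mitosis members. At 72 h their median lay near the 0.05 of all genes tested, while that of the members lay at -0.60. Tyms, thymidylate synthase, rose by 1.89 at 72 h and Pola2, a subunit of DNA polymerase alpha, by 1.0, while Pola1 and Prim2 of the same complex fell by 1.07 and 1.06. The E2F repressor gene E2f7 rose by 1.21 at 24 h and Pole2 by 1.36, the latter call lost in 5 other settings. No test of the difference between these lists and the members was run.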

How the data were processed

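Per the labels' protocols, total RNA from 18 samples was made into biotin-labelled cRNA and measured on Affymetrix arrays. The deposited log2 expression values were made by the authors with GCRMA, per the submitters' processing notes; its version is not given in the sources used here, and scanner files were not used here. GCRMA gives weak probe sets values near a floor of about log2 2, so a difference that involves such values depends on its background model.

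Of 31099 probe sets, 57 were controls and 20826 had 1 symbol in the platform annotation. The 18 arrays were fitted together as 6 group means with limma 3.58.1 in R 4.3.3, with an intensity trend (12 residual and 7.27 prior degrees of freedom), and p-values were adjusted over 9015 genes. Precision is limited by the number of arrays. The fit was tried on simulated data with independent noise for each gene and changes added to the AA 72 h group only. Such data cannot speak to genes that vary together or to the recovery of changes at 24 h. The members and the lists were chosen with earlier results of these data known.

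Every array's value is given for 10 core members, for the members with the largest difference of each step at 24 and 72 h, and for members called against the majority; the values of Spc24, Cdkn1a and Foxm1, and of part of the arrays for Mybl2, were added after they were seen. Up to 4 called genes of each other list and time are named, of which some are left out for length, with Cdkn1a, Foxm1, Mybl2, Wee1 and Chek1 in any case. Alternatives were the filter, the probe set rule, centring, repeated quantile normalization, the variance model, the samples fitted, the replicate block, current names and leaving out each array; the fit of single probe sets was added after seeing the data. The labels do not say whether replicate numbers share a day or culture. Same-numbered deviations correlated between -0.16 and 0.16, and the numbers were not used as pairs.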

Additional observations from a re-analysis of the deposited data

Results flagged for a closer look

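The difference between AA and DMSO changed between times by its own limma test, with p-values adjusted over all genes tested. From 6 to 24 h it rose in 13 tested members, among them Kif18b (1.26 on the log2 scale), Cdca2 (1.06), Kif11 (0.93), Top2a (0.91), Ttk (0.89), Aurkb (0.77) and Kif23 (0.56). Every one of those 13 calls was lost when DMSO 6 h replicate 2 was left out.

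From 24 to 72 h the difference fell in 42 members. The lowest change was in Cdc20 (-2.75), followed among the genes given in full by Ccnb1 (-2.41), Cenpf (-2.37), Plk1 (-2.29), Kif20a (-2.20), Cenpe (-2.14), Dlgap5 (-2.12) and Ccnb2 (-2.02). The changes were -1.74 in Cdca8, -1.66 in Bub1, -1.55 in Ttk, -1.47 in Cdca2, -1.44 in Top2a, -1.43 in Kif11, -1.40 in Birc5, -1.39 in Cdk1 and -1.36 in Hmmr. In Aurkb, whose value at 72 h did not pass, the change was -0.91.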

How the results depend on the processing

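With 3 arrays a group, differences of the size seen at 24 h often lay near the threshold of that time. Values near the floor have no firm fold. The Benjamini-Hochberg adjustment asks a smaller p-value where fewer genes are called. At 24 h 1.81% of all genes tested rose and 0.277% fell, against 27.4% and 19.8% at 72 h. A difference of the same size and error can thus pass at 72 h and not at 24 h. At 6 h the count of rising members was 1 when only the groups compared were fitted and lay between 1 and 5 when an array was left out, the 1 without AA 6 h replicate 3; the count of falling members was then 0 to 1. At 24 h the count of rising members was 27 without the filter and lay between 25 and 40 without an array. For the change from 6 to 24 h, 4 members passed without the filter, 7 with the mean of all probe sets and 8 without the intensity trend, and 0 to 14 without an array. With the mean of all probe sets, AA at 72 h against 24 h was at -0.54 for Kif11 (adjusted p = 0.0278) and at -0.033 for Kif23. The labels do not say whether the replicate numbers pair the samples. With the number as a block, 5 members rose and 1 fell at 6 h, 39 rose at 24 h, and 4 rose and 34 fell at 72 h. Calls kept in every setting were 1 of 4 at 6 h, 20 of 41 at 24 h, 28 of 36 at 72 h, 0 of 13 for the change from 6 to 24 h and 41 of 42 for that from 24 to 72 h. The other counts and medians of members kept their direction and stayed within 1.5 times or within the spread between replicates. The causes were not tested.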
